A study of Mus musculus with 4 samples.

Results

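The genes described here encode metalloproteinases of the MMP, ADAM and ADAMTS families and the 4 tissue inhibitors of metalloproteinases (TIMPs). They were taken by name from the deposited table, as the rows called Mmp, Timp, Adam or Adamts followed by a number, with Mmp8 and Mmp9 left out. The rule found 71 of 43346 genes: 21 Mmp, 4 Timp, 27 Adam and 19 Adamts genes. The study sequenced polyadenylated RNA of mice in 2 libraries with IL-33 over-expression (transgenic libraries B and E) and 2 libraries of control genotype (D and F). IL-33 is an alarm cytokine of the IL-1 family. The labels call the samples lung epithelial cells, while the title of the series speaks of lung tissue. The promoter that drives the transgene, the strain, age and sex of the mice, and the number of mice per library are not stated in the labels.

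MMPs, ADAMs and ADAMTS proteins share a catalytic domain that holds a zinc ion, although some ADAMs have lost its activity. MMPs cleave collagens, elastin and other matrix proteins, ADAMs cut cytokines, growth factors and receptors from the cell surface, and ADAMTS proteins process procollagens and cleave matrix proteoglycans. TIMPs bind to the catalytic site and block it. In the lung, these enzymes and inhibitors are known for their part in the turnover of elastin and collagen in the alveolar wall.

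The libraries held between 76120696 (B) and 87723745 (E) gene counts, and the members took from 0.306% (B) to 0.386% (F) of them. Il33 itself stood at 1723 CPM in B and 874 in E, against 117 in D and 108 in F, where CPM is counts per 1000000 after scaling between libraries by TMM (trimmed mean of M values). Markers of other cell types than epithelium were present: over 8 endothelial genes the summed level ran from 4883 CPM in B to 8650.1 in F, and over 11 fibroblast and smooth muscle genes from 1542 CPM in B to 3774 in F. The 10 alveolar type 2 markers summed to 60555 CPM in B and 39797 in E, against 49968 in D and 36256 in F. Y-linked genes also differed, with a summed level in percent of that in D of 0.554% in B, 8.998% in E and 47.5% in F, so that sex and genotype were partly confounded. In these bulk samples, fewer cells of a type and less RNA per cell cannot be told apart.

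The families were led by a few genes each. Of the 71 members, 50 had enough counts to be tested, 13 had only a few counts (at most 33 over all libraries together) and 8 had none. Averaged over the libraries, 35 members reached 5 CPM and 12 reached 100 CPM. On the scale of CPM per kilobase of deposited gene length, on which genes can be compared, the highest were the membrane-type proteinase gene Mmp15 at 83.8, Adamts1 at 80.1, Timp2 at 75.2, Timp3 at 68.8, Adam10 at 56.1 and Mmp14 at 55.2. Mmp15 alone made up 40.2% to 47.4% of the length-scaled total of all MMP members in a library, and Adamts1 made up 47.9% to 59.5% of the ADAMTS total. The ADAM total was spread more evenly, with 30.0% to 31.5% from Adam10. Among the inhibitors, Timp2 and Timp3 lay far above Timp1 and Timp4. Their own order was not fixed: Timp3 was slightly the higher of the pair in B, and Timp2 in E, D and F.

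**Figure D1:**
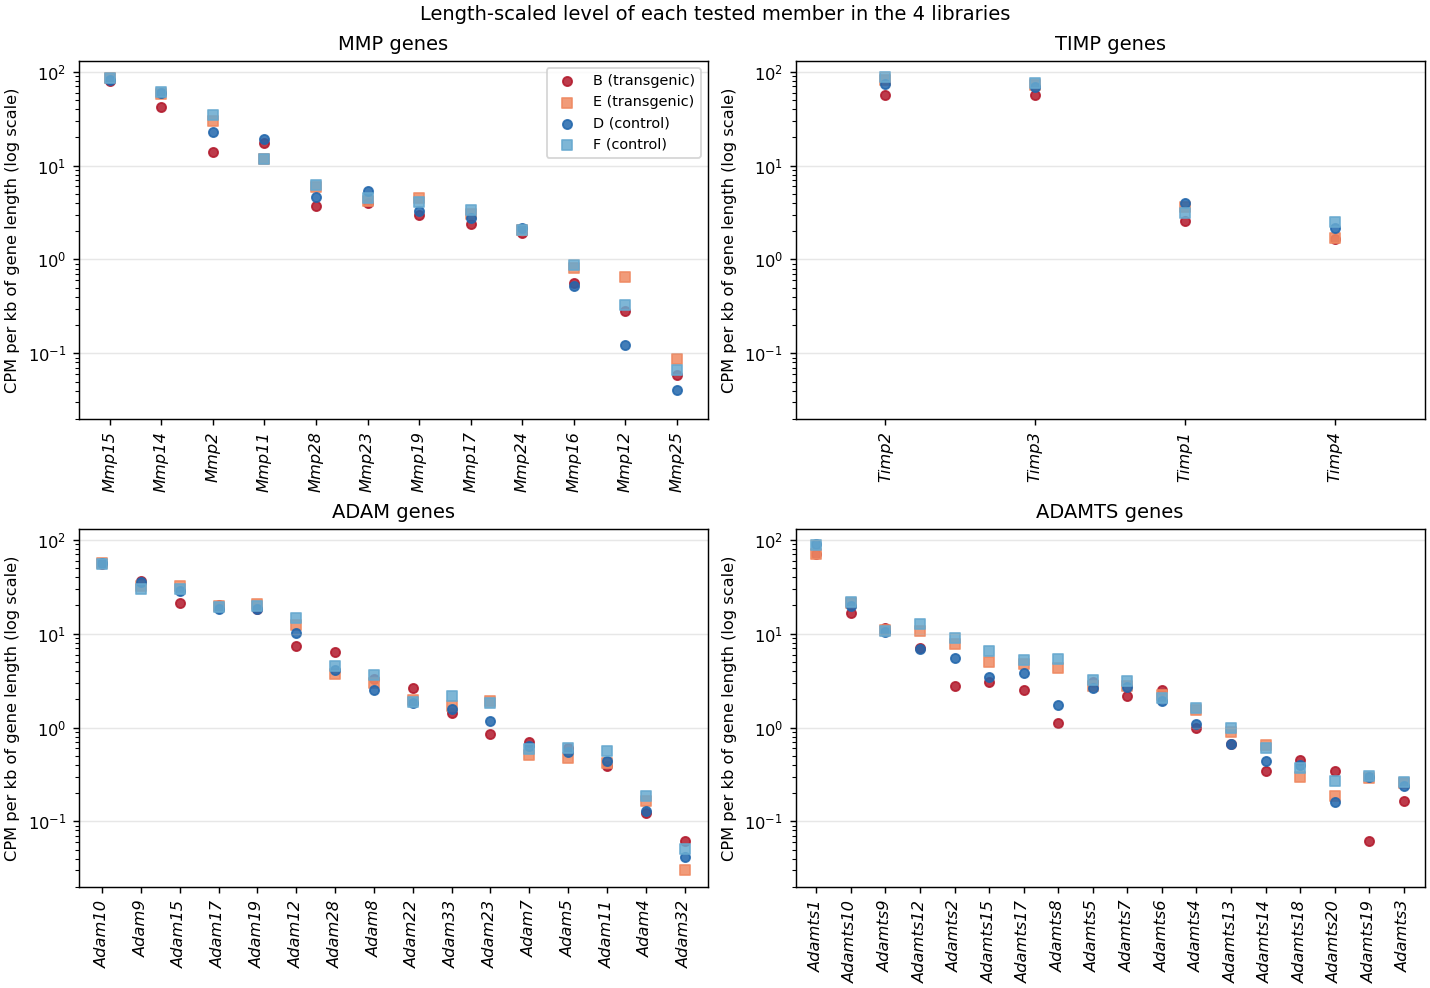
Length-scaled level (CPM per kilobase of gene length, log axis) of the 50 tested members in each library, by family, with red and orange for the transgenic libraries B and E and dark and light blue for the control libraries D and F. Mean levels run from 0.0461 for Adam32 to 83.8 for Mmp15, and for most genes the 4 libraries lie close together on this scale.

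The members with no or few counts lay mostly in 3 chromosomal clusters. On chromosome 9, between 7272514 and 7699585 (GRCm38), lie 9 members in 427.1 kb: Mmp13, Mmp12, Mmp1b, Mmp3, Mmp1a, Mmp10, Mmp27, Mmp20 and Mmp7. Of these only Mmp12, the macrophage elastase gene, was tested. The other 8 summed to 22 counts over all libraries, and the most in any of them was 7 (Mmp3, with 0 in B and 2 in E, against 1 in D and 4 in F). They include the collagenase genes Mmp1a (0 in every library), Mmp1b and Mmp13, the stromelysin genes Mmp3 and Mmp10, and the matrilysin gene Mmp7. On chromosome 8, Adam24, Adam25, Adam20 and Adam39, which lie between 40675094 and 40826861, had 0 counts, as did Adam34, Adam29 and Adam2 elsewhere. A count of 0 allows up to 3 counts, which is 0.0342 CPM in the deepest library (E) and 0.0394 CPM in the shallowest (B), counting error only. Also on chromosome 8, Adam18, Adam3, Adam5, Adam32 and Adam9 lie between 24602246 and 25016922. Adam9 had 10230 to 11461 counts in each library, while the highest of its 4 neighbours, Adam5, had 570 over all libraries. The other members left untested for few counts were Adam30, Mmp21, Adam21 and Adamts16.

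The little-counted Mmp genes of chromosome 9 and the abundant members differed in the sequence before their start sites. RefSeq (GRCm38.p6) gave a promoter for 43 of the 71 members. The 250 bases before the first listed start of each gene were searched on both strands. The motifs were TGACTCA for the AP-1 site, TATAAA for the core promoter box of that name, GGGCGG for the GC box and TGACGTCA for the cAMP response element. None of these words contains another, and a motif on the other strand appears as its reverse complement. AP-1 is a dimer of Fos and Jun proteins, and an AP-1 site near a TATA box is a known feature of inducible MMP genes. The sequences are shown because 6 genes of the cluster share both motifs. Each is the 150 bases up to the start site, 5′ to 3′ on the strand of the gene, with motif matches in capitals.
Mmp13, chr9:7272364-7272513 (plus strand): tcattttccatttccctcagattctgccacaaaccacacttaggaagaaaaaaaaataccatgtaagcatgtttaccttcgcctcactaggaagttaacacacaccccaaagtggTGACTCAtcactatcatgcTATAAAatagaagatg
Mmp1b, chr9:7388027-7388176 (minus strand): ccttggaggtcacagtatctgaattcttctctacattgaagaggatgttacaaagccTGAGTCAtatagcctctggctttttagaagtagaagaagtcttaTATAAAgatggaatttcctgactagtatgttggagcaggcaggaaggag
Mmp3, chr9:7445672-7445821 (plus strand): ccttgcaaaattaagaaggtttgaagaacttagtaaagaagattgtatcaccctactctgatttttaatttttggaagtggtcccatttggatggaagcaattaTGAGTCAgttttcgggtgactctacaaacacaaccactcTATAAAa
Mmp1a, chr9:7463991-7464140 (plus strand): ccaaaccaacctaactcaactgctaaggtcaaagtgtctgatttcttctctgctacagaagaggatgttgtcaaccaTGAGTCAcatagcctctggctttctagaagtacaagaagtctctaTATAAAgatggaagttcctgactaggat
Mmp10, chr9:7502192-7502341 (plus strand): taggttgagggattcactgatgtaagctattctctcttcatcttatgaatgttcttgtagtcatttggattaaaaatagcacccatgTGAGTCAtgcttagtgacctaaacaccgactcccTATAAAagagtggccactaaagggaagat
Mmp7, chr9:7691940-7692089 (plus strand): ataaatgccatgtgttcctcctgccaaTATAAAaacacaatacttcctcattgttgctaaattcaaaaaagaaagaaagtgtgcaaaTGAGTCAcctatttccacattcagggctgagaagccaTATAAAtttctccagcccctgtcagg

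The AP-1 match lay 35 bases before the start in Mmp13, 93 in Mmp1b, 46 in Mmp3, 73 in Mmp1a, and 63 in both Mmp10 and Mmp7. Both motifs stood in 6 of the 8 little-counted genes of the cluster (75.0%), against 0.788% of all 27025 promoters. These genes are neighbours and paralogs, so their sequences are not independent. Mmp20 held only a TATA box and Mmp27 none of the motifs. Mmp12, the detected gene of the cluster, also held none in its window. Mmp12 and Mmp7 each had 2 listed starts, and only the first was searched. The window of Mmp12 is shown beside 4 of the most abundant members.
Mmp12, chr9:7344247-7344396 (plus strand): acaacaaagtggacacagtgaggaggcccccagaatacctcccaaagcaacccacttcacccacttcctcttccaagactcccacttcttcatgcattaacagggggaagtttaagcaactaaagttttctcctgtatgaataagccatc
Adam10, chr9:70678832-70678981 (plus strand): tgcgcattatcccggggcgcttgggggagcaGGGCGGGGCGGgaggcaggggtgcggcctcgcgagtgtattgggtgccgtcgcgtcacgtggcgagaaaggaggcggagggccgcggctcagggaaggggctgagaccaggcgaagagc
Mmp15, chr8:95352146-95352295 (plus strand): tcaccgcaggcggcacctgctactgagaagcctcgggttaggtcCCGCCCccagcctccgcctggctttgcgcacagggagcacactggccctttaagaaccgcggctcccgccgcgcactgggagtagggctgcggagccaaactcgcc
Adamts1, chr16:85803114-85803263 (minus strand): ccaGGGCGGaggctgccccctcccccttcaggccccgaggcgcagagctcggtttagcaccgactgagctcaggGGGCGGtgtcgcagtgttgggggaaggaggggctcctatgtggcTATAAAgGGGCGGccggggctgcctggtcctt
Timp3, chr10:86300262-86300411 (plus strand): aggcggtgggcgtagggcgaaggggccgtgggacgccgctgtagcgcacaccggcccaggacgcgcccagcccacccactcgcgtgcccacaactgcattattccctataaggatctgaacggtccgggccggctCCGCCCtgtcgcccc

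Adamts1 held 3 GC boxes and a TATA box 32 bases before its start. Of the 20 matched members averaging at least 5 CPM, 14 (70.0%) held a GC box and 0 an AP-1 match. Among all genes of that level with a promoter, 60.8% held a GC box and 2.87% an AP-1 match, and over all promoters the shares were 32.9% and 4.43%. The median number of CpG dinucleotides was 16 in those 20 promoters, the same as among all genes of that level, and 6 over all promoters. It was 1 in the 14 promoters of members too low to be tested, which include the 8 neighbouring Mmp genes of chromosome 9. The cAMP response element was found in 0 of the 43 promoters, against 1.62% of all. A match describes the letters in this window and shows no binding.

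**Figure D2:**
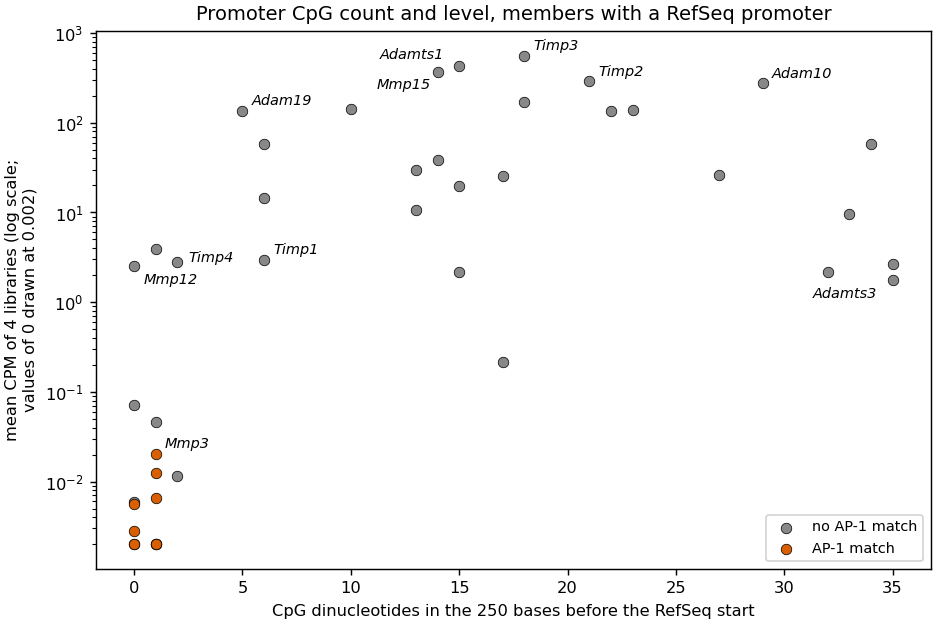
Number of CpG dinucleotides in the 250 bases before the RefSeq start (x) against mean CPM of the 4 libraries (y, log axis, values of 0 drawn at 0.002) for the 43 members with a promoter. The 7 members with an AP-1 match (orange), which are Adam29 and 6 Mmp genes of chromosome 9, sit at 0 or 1 CpG and at the bottom of the level axis, while members with 5 or more CpG run from Mmp25 at 0.213 CPM to Timp3 at 559.9 CPM.

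Transgenic and control libraries were then compared gene by gene, to ask which of these enzymes and inhibitors differ with IL-33 over-expression. By edgeR's quasi-likelihood test over 20872 genes with Benjamini-Hochberg adjustment at 0.05, 0 of the 50 tested members were called higher and 0 lower, with 0% of all genes called in each direction. The smallest adjusted p of a member was 0.999994. DESeq2 called 0 members, with 0.00479% of all genes called higher, and limma-voom called 0 members, with 0% of all genes called. At an unadjusted edgeR p under 0.05 there was 1 member, Adamts1, which was lower, against 1.29% of all genes tested (0.896% higher and 0.393% lower). With each library left out in turn 0 members were called, and the shares of all genes called were 0.00924% higher without B, 0.0139% higher and 0.0558% lower without E, and 0.0231% higher without F. The transgenic pair lay wholly above the controls for 4 members and wholly below for 6. Together these are 10 of 50 tested members, while 23.9% of all genes tested had groups apart (11.9% higher and 12.0% lower).

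The fitted values leaned to lower in transgenic libraries, and the lean was not seen without library B or without library F. Of the 50, 37 had a log2 fold change (transgenic over control) below 0, which is 74.0% against 50.4% of all genes tested. The median was -0.11, against -0.00128 over all genes. By family the median was -0.21 for the 4 TIMP genes, -0.08 for 12 MMP genes, -0.02 for 16 ADAM genes and -0.14 for 18 ADAMTS genes. Without library B, 22 of 51 members were below 0, which is 43.1% against 51.9% of all genes. Without control library F, 25 of 52 were below 0 (48.1% against 48.5%).

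**Figure D3:**
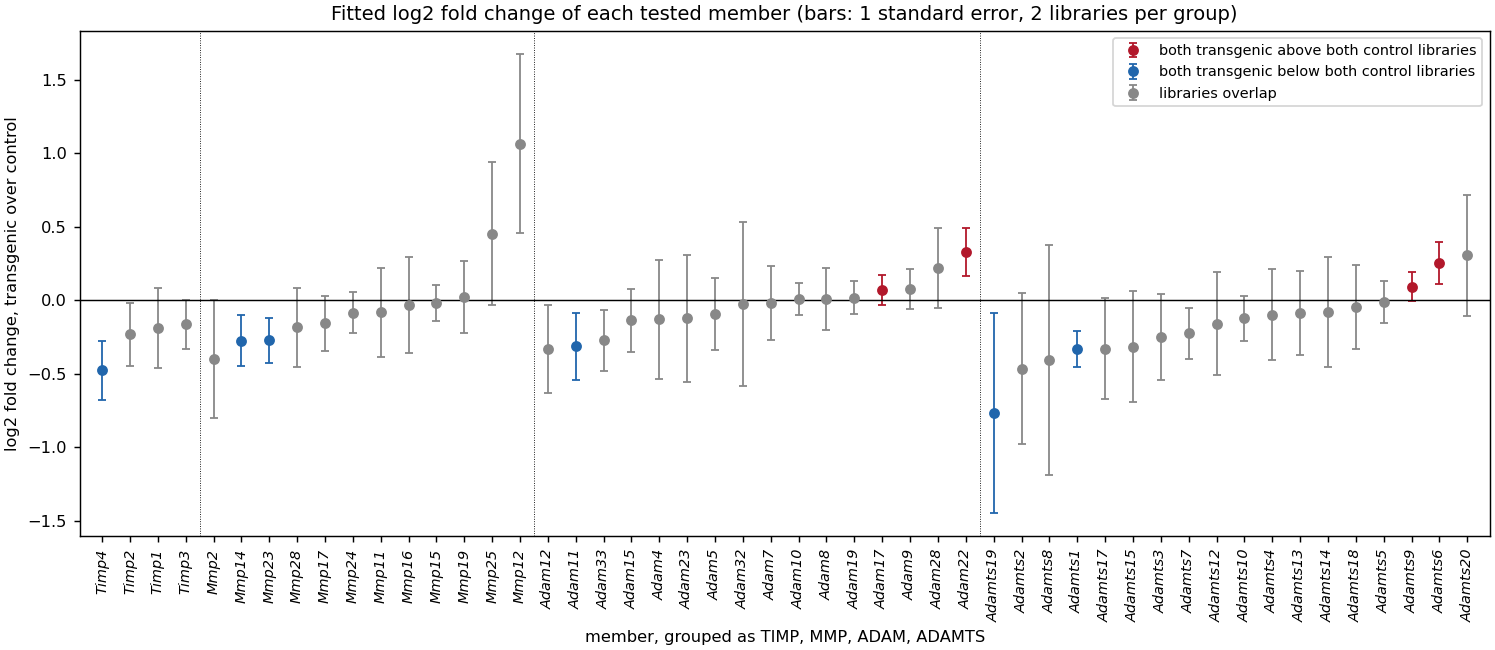
Log2 fold change of transgenic over control libraries for the 50 tested members with 1 standard error (edgeR, 2 libraries per group), grouped by family, with red and blue for the 4 and 6 genes whose groups did not overlap. Most points lie below 0, and the highest, 1.06 for Mmp12, carries an error of 0.61.

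All 4 inhibitor genes had fitted values below 0, and their groups overlapped in all but Timp4. Timp3 (ENSMUSG00000020044, chromosome 10, 86300372 to 86349506), which encodes the inhibitor bound to the matrix, stood at 466 CPM in B and 589.9 in E, against 566 in D and 617 in F (fitted log2 change -0.16, SE 0.17). Timp2, whose product also takes part in the activation of pro-MMP2, stood at 221 CPM in B and 318 in E, against 290.3 in D and 342 in F (fitted log2 change -0.23, SE 0.21). In both genes B was the lowest and F the highest library, and E lay above control D. Timp1, the inducible and secreted inhibitor, was scarce at 2.30 CPM in B and 3.25 in E, against 3.59 in D and 2.75 in F (fitted log2 change -0.19, SE 0.27). Timp4 was as scarce, at 2.34 CPM in B and 2.39 in E, against 3.08 in D and 3.51 in F, and here both transgenic libraries lay below both controls (2.37 ± 0.0348 and 3.29 ± 0.306 CPM, SD, n = 2 each). Its log2 fold change of -0.48 (SE 0.20) had an unadjusted p of 0.0643 and an adjusted p of 0.999994 in edgeR's quasi-likelihood test.

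Timp1, Timp3 and Timp4 lie within the synapsin genes Syn1, Syn3 and Syn2, on the opposite strand. In the GENCODE M21 annotation the exons of Timp1 and Syn1 share 0 bases, those of Timp4 and Syn2 share 90, and those of Timp3 and Syn3 share 1733. Syn3, a gene of the synaptic vesicle, was listed at 177 CPM in B and 228 in E, against 239 in D and 238 in F. As the strand setting is unknown here, reads of Timp3 and Syn3 from the shared bases cannot be told apart. Syn1 reached at most 0.542 CPM in a library and Syn2 at most 0.775 CPM. The same limit holds for other members that share exon bases with a gene on the opposite strand. These include Mmp19 (789 with Tmem198b), Mmp24 (637 with BC029722), Mmp28 (466 with 1700020L24Rik) and Adamts9 (1381 with A730049H05Rik). Tmem198b stood at 21.9 CPM in B and 28.8 in E, against 24.6 in D and 27.9 in F, above Mmp19 in every library and in the same library order.

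Among the secreted MMPs, the gelatinase gene Mmp2 and the stromelysin-3 gene Mmp11 were the most abundant, and their libraries followed different orders. Mmp2 (ENSMUSG00000031740, chromosome 8, 92827328 to 92853417), whose enzyme cleaves gelatin and type IV collagen and is made mainly by mesenchymal cells, stood at 42.03 CPM in B and 90.01 in E, against 69.5 in D and 105 in F (fitted log2 change -0.40, SE 0.40). The highest library was 2.50 times the lowest, and the groups overlapped. Mmp11, which encodes a proteinase activated inside the cell by furin, stood at 45.00 CPM in B and 29.98 in E, against 49.1 in D and 30.1 in F (fitted log2 change -0.08, SE 0.30). It was thus high in 1 library of each genotype, B and D, and low in E and F.

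The remaining secreted MMPs and Mmp23 were lower. Mmp28, the gene of the epithelial proteinase epilysin, stood at 14.3 CPM in B and 22.7 in E, against 18.1 in D and 23.96 in F (fitted log2 change -0.18, SE 0.27). For Mmp19 the values were 10.3 CPM in B and 15.3 in E, against 11.1 in D and 14.1 in F (fitted log2 change 0.02, SE 0.24), with E highest and B lowest. Mmp23, an unusual member held in the membrane by its amino terminus, stood at 9.33 CPM in B and 9.86 in E, against 12.6 in D and 10.6 in F. Its groups did not overlap, with a transgenic mean of 9.60 ± 0.375 CPM and a control mean of 11.6 ± 1.35 CPM (SD, n = 2 each; fitted log2 change -0.27, SE 0.15), but the difference missed the threshold (edgeR adjusted p = 0.999994).

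Mmp12 (ENSMUSG00000049723, chromosome 9, 7344381 to 7369499), the elastase gene of macrophages, had the highest fitted value of the tested members. It stood at 2.06 CPM in B and 4.76 in E, against 0.893 in D and 2.37 in F (fitted log2 change 1.06, SE 0.61; edgeR adjusted p = 0.999994). Each transgenic library exceeded control D, but B lay below control F, so the groups overlapped. Mmp12 in B was 2.31 times that in D and 0.871 times that in F. In E it was 5.33 times that in D and 2.01 times that in F. A covariate then set B and D apart from E and F, a split known from earlier results of these data and not from the labels. The fitted log2 change was then 1.10 (SE 0.19), with an unadjusted edgeR p of 0.00188 and an adjusted p of 0.733. Because the split was taken from these data, this error and p cannot be read as a test of genotype. With the Y-linked level of each library as a covariate the fitted log2 change of Mmp12 was -0.29 (SE 1.05). Leukocyte markers followed Mmp12 in part. Ptprc, which encodes CD45 on all leukocytes, was at 20.6 CPM in B and 30.04 in E, against 8.21 in D and 16.5 in F. The summed level of 10 alveolar macrophage markers was 164 CPM in B and 328 in E, against 169.6 in D and 314 in F, with 9 of 10 lowest in D and 9 of 10 highest in E. Over 9 neutrophil markers the sum was 21.1 CPM in B and 40.96 in E, against 12.4 in D and 18.4 in F. Other lists had another order: 10 monocyte and interstitial macrophage markers summed to 798 CPM in B and 766 in E, against 849.6 in D and 712 in F, and 10 T and NK cell markers to 9.81 CPM in B and 7.88 in E, against 5.25 CPM in both D and F. The alveolar macrophage sum was also lower in B than in D, unlike Mmp12. Ptprc and the neutrophil sum were higher in B than in F, while Mmp12 was lower in B than in F. None of these markers was at 0 in any library, and their part in the values of Mmp12 was not tested. Mmp12 shares 157 exon bases with Mmp1b on the other strand, which had 2 counts in E and 0 in the other libraries.

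The membrane-type MMPs held the most abundant MMP gene, which barely differed between libraries. Mmp15 (ENSMUSG00000031790, chromosome 8, 95352268 to 95374293), encoding MT2-MMP, stood at 351 CPM in B and 373 in E, against 357 in D and 377 in F (fitted log2 change -0.02, SE 0.12), a range of 1.07-fold. Of the 12588 genes averaging at least 5 CPM, 10.01% had a smaller range. Mmp14, which encodes MT1-MMP, the collagenase that activates pro-MMP2 at the cell surface, stood at 109.6 CPM in B and 149.8 in E, against 155 in D and 159 in F. Its groups did not overlap, with a transgenic mean of 129.7 ± 28.4 CPM and a control mean of 157 ± 3.07 CPM (SD, n = 2 each; fitted log2 change -0.27, SE 0.17), but the transgenic spread was wide and E lay close to the controls. Mmp17, encoding a membrane-type MMP with a lipid anchor, stood at 10.6 CPM in B and 13.5 in E, against 12.1 in D and 14.7 in F (fitted log2 change -0.16, SE 0.19). Mmp24 was level, at 8.92 CPM in B and 9.76 in E, against 10.1 in D and 9.74 in F (fitted log2 change -0.08, SE 0.14). Mmp16 stood at 4.86 CPM in B and 7.03 in E, against 4.57 in D and 7.59 in F (fitted log2 change -0.03, SE 0.32), with B and D low and E and F high. Mmp25, a membrane-type MMP known from leukocytes, averaged 0.213 CPM.

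Among the ADAM genes with proteolytic products, the main sheddases were even across libraries. Adam10 (ENSMUSG00000054693, chromosome 9, 70678997 to 70780229), the sheddase gene of Notch receptors and E-cadherin, stood at 272 CPM in B and 281 in E, against 275 in D and 274 in F (fitted log2 change 0.01, SE 0.11). This is a range of 1.03-fold over the 4 libraries, and 1.07% of the genes averaging at least 5 CPM had a smaller one. Adam17, whose enzyme releases tumour necrosis factor and ligands of the epidermal growth factor receptor, stood at 145 CPM in B and 140.0 in E, against 132 in D and 139 in F (fitted log2 change 0.07, SE 0.10). Both transgenic libraries lay above both controls, but E and F nearly coincided. Adam17 shares 311 exon bases with Iah1 on the other strand. For Adam19, which acts on neuregulins, the values were 129 CPM in B and 146 in E, against 132 in D and 139.9 in F (fitted log2 change 0.02, SE 0.11), a range of 1.13-fold. For Adam9 the libraries fell in another order, at 147 CPM in B and 129 in E, against 142 in D and 120.1 in F (fitted log2 change 0.08, SE 0.14), with B highest and F lowest.

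Other ADAMs of this kind varied more, and in none of the following 5 were the groups apart. Adam15 stood at 131 CPM in B and 198 in E, against 175 in D and 186 in F (fitted log2 change -0.13, SE 0.21), with B below the other libraries. Adam12, a gene of mesenchymal and muscle precursor cells, stood at 61.4 CPM in B and 103 in E, against 85.1 in D and 121 in F (fitted log2 change -0.33, SE 0.30), and F was 1.98 times B. Adam28, known from lymphocytes and epithelium, was highest in B, at 23.4 CPM in B and 13.6 in E, against 15.2 in D and 16.7 in F (fitted log2 change 0.22, SE 0.27). For Adam8, a sheddase gene of leukocytes, the values were 15.1 CPM in B and 13.7 in E, against 11.7 in D and 16.97 in F (fitted log2 change 0.01, SE 0.21), so that the controls lay on either side of the transgenic libraries. Adam33, whose human counterpart has been linked to asthma, stood at 7.68 CPM in B and 9.06 in E, against 8.57 in D and 11.6 in F (fitted log2 change -0.27, SE 0.21).

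Adam11, Adam22 and Adam23, taken as ADAMs that lack the catalytic motif and act in adhesion, were read together. The protein sequences of the ADAM members were not checked for the motif here. Adam22 and Adam11 had groups that did not overlap, in opposite directions. Adam22 stood at 32.6 CPM in B and 24.3 in E, against 22.4 in D and 22.9 in F (28.4 ± 5.84 and 22.7 ± 0.374 CPM, SD, n = 2 each; fitted log2 change 0.33, SE 0.17). B lay well above the controls and E just above the controls. Adam11 was scarce, at 2.22 CPM in B and 2.38 in E, against 2.52 in D and 3.20 in F (fitted log2 change -0.31, SE 0.23). Adam23 stood at 15.1 CPM in B and 34.6 in E, against 21.1 in D and 33.1 in F (fitted log2 change -0.12, SE 0.43), with the low libraries B and D from both groups. All 3 had an edgeR adjusted p of 0.999994. Of the 15 remaining Adam genes, many of which are known from testis or epididymis, 4 were tested. The highest of them was Adam7 at 2.57 CPM in B and 1.87 in E, against 2.31 in D and 2.18 in F (fitted log2 change -0.02, SE 0.25).

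Adamts1 (ENSMUSG00000022893, chromosome 16, 85793827 to 85803113) had the smallest p of the members. It encodes a secreted proteinase that cleaves versican and aggrecan. It stood at 379 CPM in B and 373 in E, against 484 in D and 462 in F, so that both transgenic libraries lay below both controls. The transgenic mean was 376 ± 4.17 CPM and the control mean 473 ± 15.4 CPM (SD, n = 2 each), with a log2 fold change of -0.33 (SE 0.12). The difference between the means exceeded the spread within each group, but edgeR's unadjusted p was 0.0395 and its adjusted p 0.999994. The sign was the same in every alternative fit run. As the groups did not overlap, leaving out a library could hardly turn it, so this adds nothing to the values above. Its neighbour on chromosome 16, the aggrecanase gene Adamts5, did not share this order, at 24.6 CPM in B and 22.2 in E, against 21.2 in D and 25.9 in F (fitted log2 change -0.01, SE 0.14).

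The other proteoglycan-cleaving ADAMTS genes fell into even and uneven ones. Adamts9, whose enzyme cleaves versican, was even, at 145 CPM in B and 138 in E, against 132 in D and 133 in F (fitted log2 change 0.09, SE 0.10), with both transgenic libraries above both controls by a small margin. Adamts8 had the widest range of the members averaging at least 5 CPM, at 5.11 CPM in B and 19.7 in E, against 8.08 in D and 24.9 in F (fitted log2 change -0.40, SE 0.78), and F was 4.86 times B. Adamts15, which lies beside Adamts8 on chromosome 9, stood at 18.2 CPM in B and 29.4 in E, against 20.3 in D and 39.04 in F (fitted log2 change -0.32, SE 0.38). Adamts4, another aggrecanase gene, stood at 4.77 CPM in B and 7.42 in E, against 5.27 in D and 7.77 in F (fitted log2 change -0.10, SE 0.31). In these last 3 genes both E and F exceeded both B and D. Taken as B against D and E against F, pairs that the labels do not give, the transgenic library was the lower in each. The ratios were 0.633 and 0.795 for Adamts8, 0.898 and 0.753 for Adamts15, and 0.904 and 0.955 for Adamts4. The ratio of E to D went the other way, at 2.44 for Adamts8, 1.45 for Adamts15 and 1.41 for Adamts4. With the covariate for the library split used for Mmp12, the fitted log2 change of Adamts8 was -0.49 (SE 0.13, edgeR adjusted p = 0.799). The limit given there for this split holds here too. Adamts20 averaged 2.15 CPM.

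The procollagen N-propeptidase genes were lowest in B as well. Adamts2 (ENSMUSG00000036545, chromosome 11, 50602084 to 50807573), whose enzyme removes the amino-terminal propeptide of fibrillar procollagens, stood at 25.9 CPM in B and 72.1 in E, against 51.6 in D and 83.7 in F (fitted log2 change -0.46, SE 0.51). F was 3.24 times B, and E lay between the controls. Adamts3 and Adamts14, its close relatives, averaged 1.77 and 2.66 CPM.

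Of the 9 remaining ADAMTS genes, 8 were tested. Adamts10, whose product binds fibrillin microfibrils, stood at 90.5 CPM in B and 117 in E, against 108 in D and 118 in F (fitted log2 change -0.12, SE 0.15). For Adamts12, which cleaves cartilage oligomeric matrix protein, the values were 43.5 CPM in B and 66.1 in E, against 42.7 in D and 79.7 in F (fitted log2 change -0.16, SE 0.35), with B and D low and E and F high. Adamts17 stood at 17.97 CPM in B and 34.5 in E, against 27.6 in D and 38.3 in F (fitted log2 change -0.33, SE 0.34), and Adamts7, which shares a substrate with Adamts12, at 13.6 CPM in B and 17.5 in E, against 16.8 in D and 19.5 in F (fitted log2 change -0.23, SE 0.17). In both, B was lowest and F highest. In Adamts6 both transgenic libraries lay above both controls, at 12.2 CPM in B and 10.8 in E, against 9.27 in D and 10.02 in F (fitted log2 change 0.25, SE 0.14; edgeR adjusted p = 0.999994). Adamts13, which cleaves von Willebrand factor, averaged 3.93 CPM and Adamts18 2.14 CPM. Adamts19, named after its values were seen, stood at 0.291 CPM in B and 1.34 in E, against 1.38 in D and 1.43 in F (fitted log2 change -0.77, SE 0.68). In this gene E, D and F were close to each other and B was apart, with 22 counts.

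**Figure D4:**
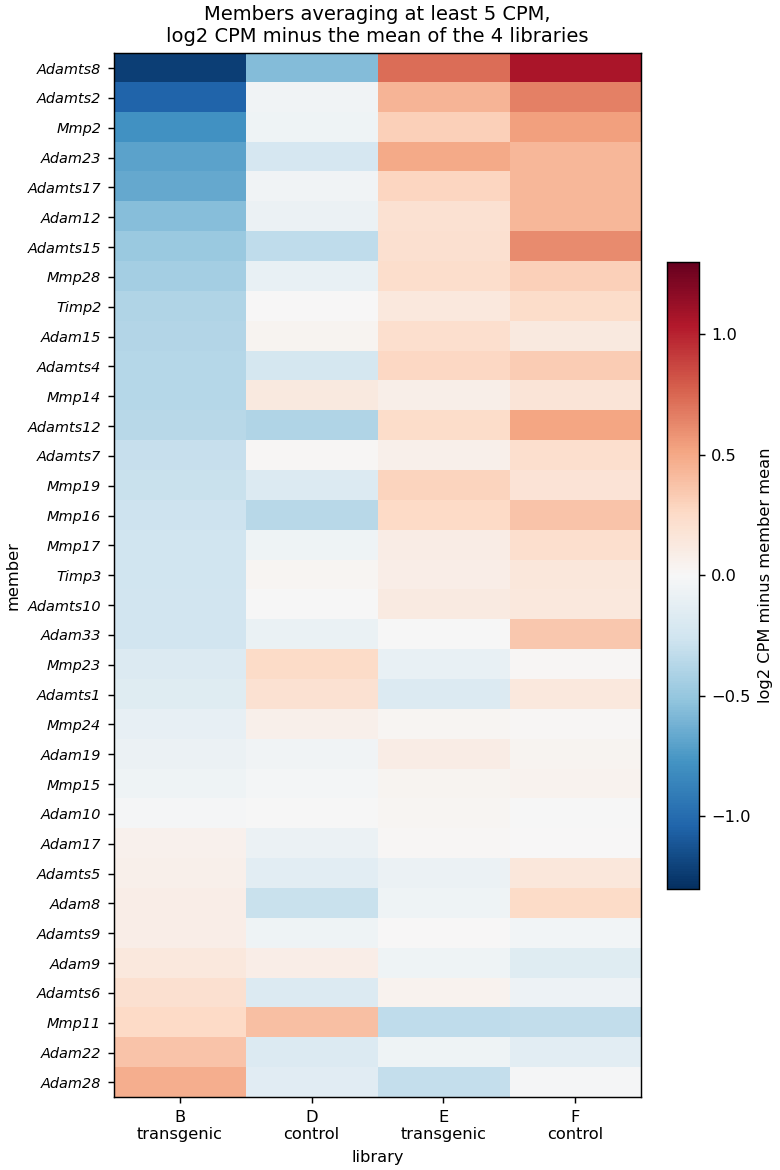
Heat map of log2 CPM minus the mean of the 4 libraries for the 35 members averaging at least 5 CPM (rows), sorted by the value in library B, with the libraries as columns. Blue is below and red above the member's own mean: the upper rows, from Adamts8 and Adamts2 down, are low in B and high in F, the rows of Adam10 and Mmp15 are nearly white, and Mmp11, Adam22 and Adam28 at the bottom are high in B.

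Across the members, library B of the transgenic group was often the lowest and control library F the highest. Library B was the lowest of the 4 for 31 of the 50 tested members (62.0%, against 33.9% of all genes tested), and library F the highest for 26 (52.0%, against 25.7%). The median range between the highest and lowest library was 0.60 on the log2 scale for the tested members and 0.41 for all genes tested. Beside this, 11 of 11 fibroblast and smooth muscle markers and 8 of 8 endothelial markers were lowest in B, and 10 of 10 alveolar type 2 markers were highest in B. The fibroblast and smooth muscle sum was 1542 CPM in B and 3199.6 in E, against 2301 in D and 3774 in F, the same order of libraries as for Mmp2, Adamts2, Adamts8, Adamts17 and Adam12. The mesothelial sum over 5 markers, at 264 CPM in B and 147 in E, against 299.8 in D and 137 in F, was high in B and D, as was Mmp11. The epithelial sums, among them that of alveolar type 2 markers, were also higher in B and D than in E and F. The sum over 7 airway secretory and ciliated markers was 11339 CPM in B and 7310 in E, against 9542 in D and 7380 in F. Over 8 alveolar type 1 markers it was 3368 CPM in B and 2817 in E, against 3667 in D and 2748 in F. None of these markers was at 0 in any library. Their part in the members' values was not tested.

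**Figure D5:**
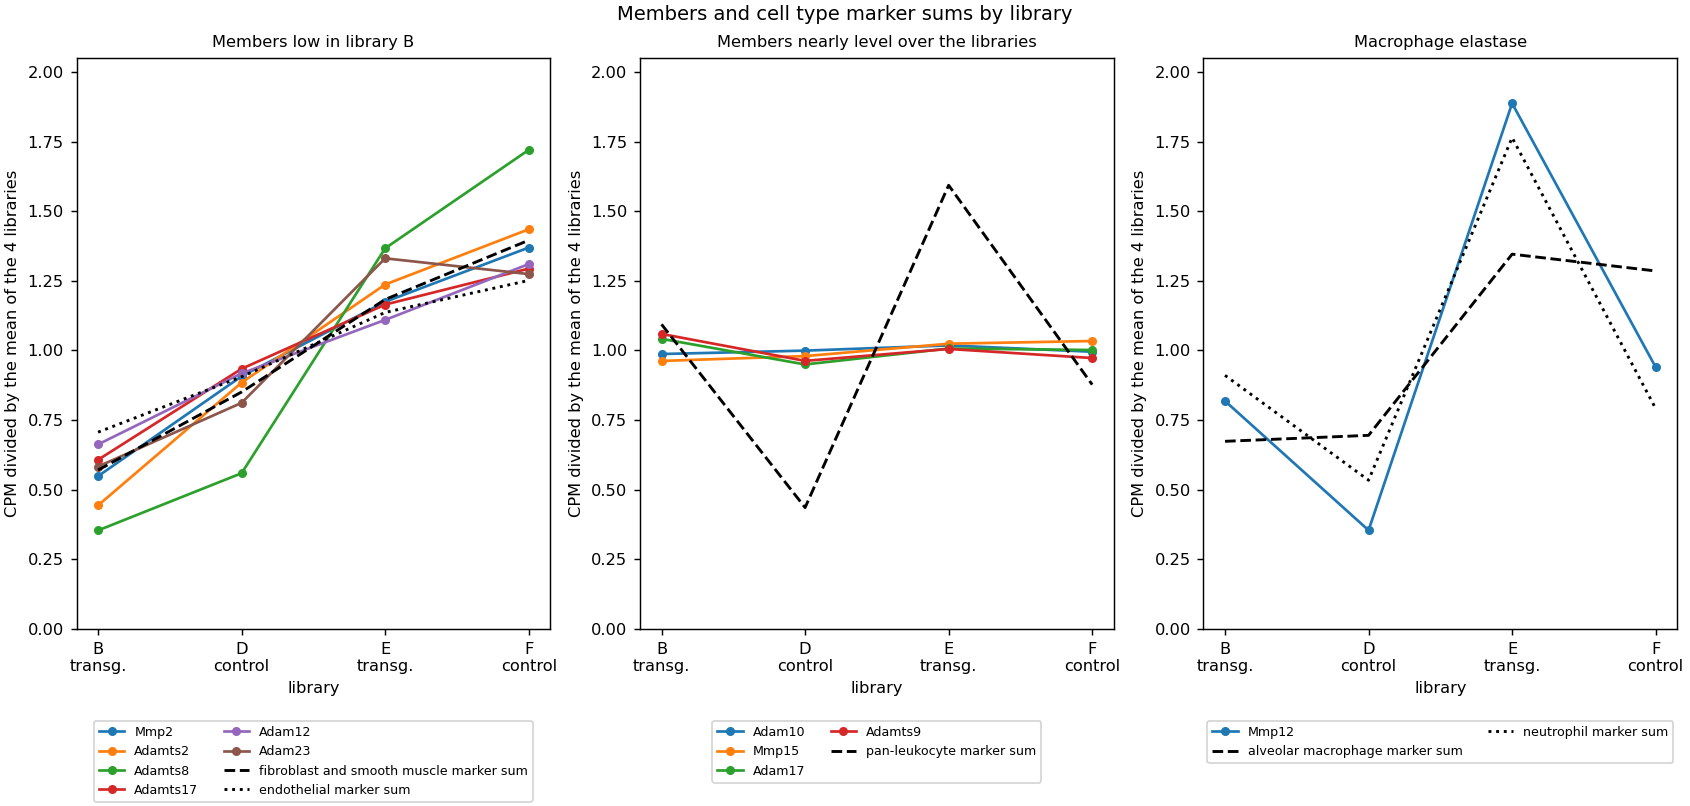
CPM divided by the mean of the 4 libraries (y) by library (x) for 3 sets of members (coloured points) and summed marker levels (black lines). Lines only join the values of 1 gene or sum. Mmp2, Adamts2, Adamts8, Adamts17, Adam12 and Adam23 are low in B, as are the fibroblast and endothelial sums; Adam10, Mmp15, Adam17 and Adamts9 stay near 1 while the leukocyte gene Ptprc varies; Mmp12 is lowest in D and highest in E, as is the neutrophil sum.

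Genes that activate, inhibit or serve as substrates of these proteinases were read from the same fit. Of 18 tested activators and other inhibitors, 0 were called, 15 had a value below 0 (median -0.12) and 13 were lowest in B. Plaur, the urokinase receptor gene, stood at 22.6 CPM in B and 32.96 in E, against 34.2 in D and 38.8 in F (fitted log2 change -0.39, SE 0.20). Both transgenic libraries lay below the controls, E only by a small margin.

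Of 22 matrix substrates, 0 were called, 19 were below 0 (median -0.19) and 19 were lowest in B. Eln, the elastin gene, stood at 3949.8 CPM in B and 7219 in E, against 6391 in D and 9508 in F (fitted log2 change -0.51, SE 0.40), the library order of Mmp2. Acan, the aggrecan gene, went the other way at a low level, at 2.01 CPM in B and 1.16 in E, against 0.782 in D and 0.798 in F (fitted log2 change 1.002, SE 0.35). Of 23 shed membrane proteins and regulators of ADAM17, 0 were called, and 12 lay above and 11 below 0 (median 0.06). Cd44, the hyaluronan receptor gene, was at 181 CPM in B and 191 in E, against 141 in D and 164 in F (fitted log2 change 0.28, SE 0.12), and Tnfrsf1b, a receptor gene for tumour necrosis factor, at 12.5 CPM in B and 18.00 in E, against 9.02 in D and 12.3 in F (fitted log2 change 0.52, SE 0.25). In both, the transgenic libraries lay above the controls. Of 15 tested ADAMTS-like, astacin and other close metalloproteinases, 0 were called and the median was -0.07. Phex, an endopeptidase gene linked to phosphate balance, stood at 2.61 CPM in B and 5.42 in E, against 7.27 in D and 6.87 in F (fitted log2 change -0.81, SE 0.37), below the controls in both transgenic libraries. These genes of the 4 lists had an edgeR adjusted p of 0.999994.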

How the data were processed

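Each gene row of the 1 table that the authors deposited holds raw whole-number read counts and, per library, an RPKM. The submitters' processing notes name TopHat2 (version 2), Bowtie (version 1) and featureCounts (version 1), with the builds mm10 and GRCm38, 2 names of 1 assembly. The handling of strand and of multi-matching reads, and the annotation release, are points the sources used here leave unstated, so paralogs and overlapping genes may share reads. The RPKM values deposited by the authors entered no result. The length column, called coding length per the file headers, scaled the levels per kilobase. Only 38.1% of its values are multiples of 3, so it is not limited to coding bases.

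The filter was filterByExpr, with a minimum count of 10 and a minimum total of 15, and scaling was by TMM. Groups of 2 libraries were compared by the quasi-likelihood test of edgeR 4.0.16 in R 4.3.3 over 20872 genes, without covariates and with Benjamini-Hochberg adjustment at 0.05. Standard errors were derived from the fitted log2 fold change and its F statistic. The labels do not say that libraries come from separate mice or cultures, so p-values measure only the spread between libraries. All pairs of libraries differed by more than sampling noise, the lowest chi-square per gene being 19.5, between transgenic E and control F. Within a genotype it was 138 for B and E and 82.0 for D and F. The other pairs across genotypes were at 62.6 (B and D), 76.0 (D and E) and 174 (B and F).

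Named members were the TIMPs, members averaging at least 5 CPM, up to 5 per direction with the smallest p among those averaging at least 1 CPM with groups apart, the highest per length in each role group, and up to 4 leading genes of each related list. 1 gene of these lists is not reported here. The members, role groups and lists were chosen with earlier results of these data known. Other settings tried were scaling by DESeq2 size factors or the upper quartile, filtering less or more (1 CPM in 2 libraries), leaving out each library, the tests of DESeq2 1.42.0 and limma-voom (limma 3.58.1), a covariate that sets B and D apart from E and F, and the Y-linked level as a covariate. All 71 identifiers are in GENCODE M21 with the same symbol.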

Additional observations from a re-analysis of the deposited data

How the results depend on the processing

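With 2 libraries per group, single libraries decided many directions. The count of 0 members called in each direction held in every alternative run, and the smallest adjusted p of a member was 0.331 (Adamts19, without library E). Over all genes, DESeq2 called 1 gene higher, and with 1 library left out 0 to 5 genes were called higher and 0 to 12 lower. With 1 library left out, the number of members below 0 ran from 22 to 37. The median log2 fold change then ran from -0.33 to 0.026 for all members, from -0.31 to 0.037 for MMP, from -0.48 to 0.0039 for TIMP, from -0.090 to 0.085 for ADAM and from -0.45 to 0.12 for ADAMTS members. With the Y-linked level as a covariate the medians were -0.38 for all members, -0.24 for ADAM and -0.48 for ADAMTS. This level was partly confounded with genotype, so these medians cannot be read as adjusted for sex. Leaving out a library leaves 1 arm with a lone sample, which is assumed to vary like the other group. Depth limits members with few counts.

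Of the 48 genes whose fits were repeated, 19 kept their sign in every fit run. Among them were Adamts1, Adamts6, Adamts7, Adamts9, Adamts19, Adam11, Adam12, Adam22, Adam33, Mmp14, Timp3 and Timp4. In Adamts1, Adamts6, Adamts9, Adamts19, Adam11, Adam22, Mmp14 and Timp4 the groups did not overlap, so leaving out a library could hardly turn the sign. The groups of Timp3, Adam12, Adamts7 and Adam33 overlapped, and their values shrank without a certain library. Without B the log2 fold change was -0.0033 for Timp3, -0.0030 for Adam12 and -0.052 for Adamts7. Without F it was -0.035 for Adam33. With 1 library left out the sign turned for 25 genes. Their log2 fold changes then ran from -0.85 to 0.35 for Adam23, -0.46 to 0.21 for Adamts4, -0.47 to 0.13 for Adam15, -0.35 to 0.38 for Mmp16, -0.36 to 0.013 for Mmp17, -0.88 to 0.066 for Adamts17, -0.24 to 0.30 for Adam8 and -0.041 to 0.20 for Adam9. They ran from -1.06 to 0.048 for Mmp2, -0.074 to 0.026 for Mmp15, -0.71 to 0.23 for Adamts15, -1.69 to 0.62 for Adamts8, -0.024 to 0.031 for Adam10, -0.40 to 0.32 for Mmp11, -0.30 to 0.28 for Mmp19 and -0.082 to 0.10 for Adam19. For the others the ranges were -1.39 to 0.096 for Adamts2, -0.57 to 0.11 for Mmp28, -0.53 to 0.011 for Timp2, -0.26 to 0.18 for Adam7, -0.23 to 0.55 for Adam28, -0.54 to 0.36 for Adamts12, -0.15 to 0.14 for Adamts5, -0.33 to 0.050 for Adamts10 and -0.47 to 0.038 for Timp1. With the Y-linked level as a covariate the value was 0.0021 for Mmp24, 0.052 for Mmp23, -0.69 for Adam8, -0.29 for Mmp12, 0.76 for Mmp11, -0.30 for Mmp19, -0.053 for Adam19, -0.038 for Adam17, -0.11 for Adam28 and 0.41 for Timp1. With the stricter filter Adam10 stood at -9.6e-05. The cause of these changes was not tested. No paired analysis was possible because the labels give the libraries no replicate numbers or shared litters or batches. A covariate set B and D apart from E and F, a split known from earlier results of these data. It reversed no named gene, called 0 members and left 37 of 50 below 0. Each side of that split holds a transgenic and a control library, so it could hardly turn a sign and is no check of direction.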

Other observations

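The summed inhibitors and MMPs were set against each other by library. The length-scaled sum of the 4 TIMP genes divided by that of the 21 MMP genes was 0.694 in B and 0.774 in E, against 0.742 in D and 0.784 in F. Transgenic library B was thus below both controls and E between them. For Mmp2 over Timp2, whose products bind each other, the enzyme was divided by the inhibitor, the other way round. This length-scaled ratio was 0.244 in B and 0.363 in E, against 0.307 in D and 0.393 in F. Library B was thus lowest in both ratios, with the least inhibitor per MMP in the sums but the most Timp2 per Mmp2. These ratios were chosen after the data were seen and were not tested.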
